A study of Rattus norvegicus with 3 samples.

Results

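Solute carriers are the Slc genes, a superfamily of membrane proteins that move amino acids, sugars, ions, transmitters, vitamins and metabolites across cell and organelle membranes. The members were all probe sets whose single gene symbol in the platform annotation began with Slc and a digit, 181 of 8740 probe sets other than controls. They stood for 120 of 4736 genes with a single symbol. Each gene was read from its brightest probe set, the one with the highest mean log2 intensity over the arrays. This rule for members used no comparison between arrays, but it was set with earlier results of these data known.

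The series held 3 rat expression arrays hybridised with total RNA, 1 array each for a time label of 0.0 h, of 0.1 h and of 1.0 h. All samples had the same source label, which lists pineal gland and adrenal medulla. The labels do not say which of these tissues each array held, so arrays may differ in tissue as well as in time label, and these cannot be told apart. They give neither the treatment nor strain, sex, age or number of animals. Whether 0.1 h is a true time was not settled by the labels. With 1 array per label, no difference below has a replicate check, there is no test, and precision is limited by having 3 arrays.

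Transporters in the plasma membrane fall into facilitated carriers, which let a solute run down its gradient, and coupled carriers, which spend the gradient of sodium, protons or chloride on moving another solute. Vesicular carriers load transmitter into secretory vesicles on a proton gradient, and most Slc25 carriers exchange metabolites across the inner mitochondrial membrane. The pineal gland makes melatonin from tryptophan by way of serotonin. Chromaffin cells of the adrenal medulla store catecholamines in vesicles, into which Slc18a1 and Slc18a2 pump them.

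Intensities are given on a linear scale after the arrays were brought to a common level, in the order 0.0 h, 0.1 h and 1.0 h. A floor for usable signal, an intensity of 262.9, was put at the 40th percentile of the pooled values. Across the arrays 58.8% to 60.9% of probe sets other than controls were above it. Probe sets for antisense or foreign control sequences were not all below it, with 9, 9 and 5 of 38 above, so a value just over the floor may not be specific signal. The 3' to 5' signal ratio of the actin control, a sign of RNA or label length, was 10.4, 17.8 and 44.4, and that of the GAPDH control was 15.3, 18.6 and 14.1. The part of RNA quality in the differences below was not tested. Pinealocyte markers were above the floor on all arrays for 8 of 10 genes. Opn1sw was below it throughout, and Aanat was below it at 0.0 h (253, 401 and 506). Chromaffin markers were above it for 4 of 8 (Pnmt, Chgb, Npy and Penk), while the defining genes Th and Dbh were below it on every array, at 137, 202 and 183 for Th and 90.8, 56.1 and 102 for Dbh. Of 7 adrenal cortex markers only Fdx1 was above it on all arrays.

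Signal above the floor on all 3 arrays was found for 73 of the 120 Slc genes (60.8%), close to the 61.6% of all genes (2917 of 4736). Another 24 were below it on every array, 10 were above it on 2 arrays and 13 on 1 array. By class, 12 of 12 genes of the mitochondrial Slc25 class, 19 of 31 ion carriers and 11 of 18 neurotransmitter carriers were above it on all arrays. The Slc25 class is by family and takes in Slc25a17, a peroxisomal member. So were 23 of 42 carriers of other solutes, 5 of 10 amino acid carriers and 3 of 7 glucose carriers. In these bulk samples, fewer cells of a type and less RNA per cell cannot be told apart. Probe sets differ in their binding, so levels are compared between arrays for 1 gene and never between genes.

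**Figure D1:**
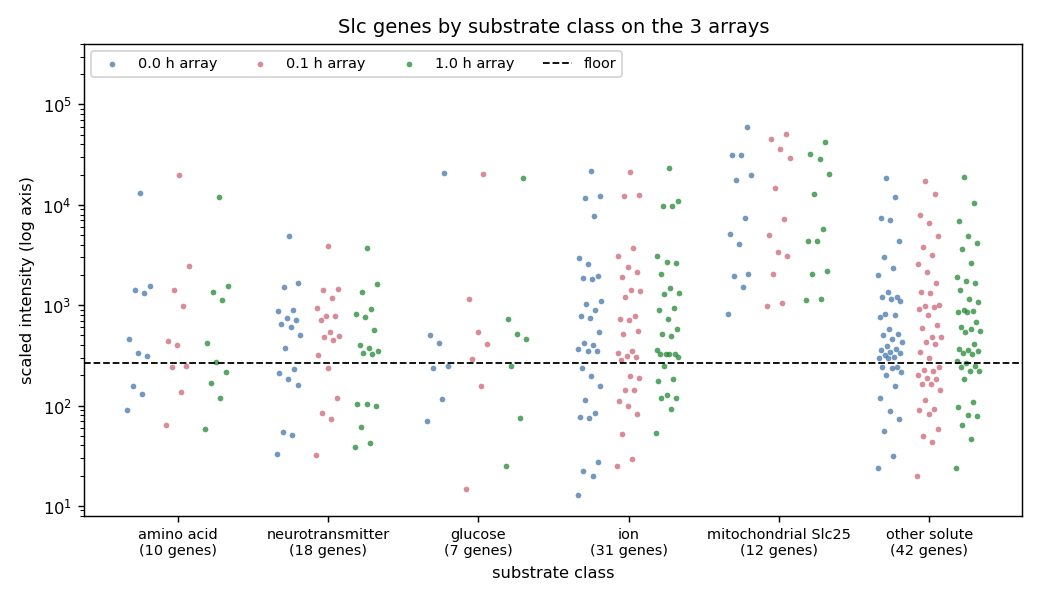
Scaled intensity (log axis) of each of the 120 Slc genes on the 0.0 h, 0.1 h and 1.0 h arrays, by substrate class, with 1 point per gene and array and the floor of 262.9 as a dashed line. All 12 genes of the mitochondrial Slc25 class lie above the floor on every array, while each of the other classes has genes on both sides of it.

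Promoters were read for what the members share in sequence. In RefSeq's table for the GRCr8 build, 101 of the 120 genes had a promoter entry, of which the 250 bases before the gene start were read. A CpG ratio, the observed over the expected number of CG dinucleotides, of at least 0.6 was found in 37 of 60 promoters of Slc genes above the floor on all arrays (61.7%). It was found in 7 of 20 of those above on 1 or 2 arrays and in 5 of 21 of those below on all (23.8%). The same shares over all genes of the array were 66.9%, 44.0% and 35.4%, so this order was that of the array as a whole. By class, 8 of 10 promoters of the mitochondrial Slc25 class reached the ratio, against 10 of 38 for carriers of other solutes.

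**Figure D2:**
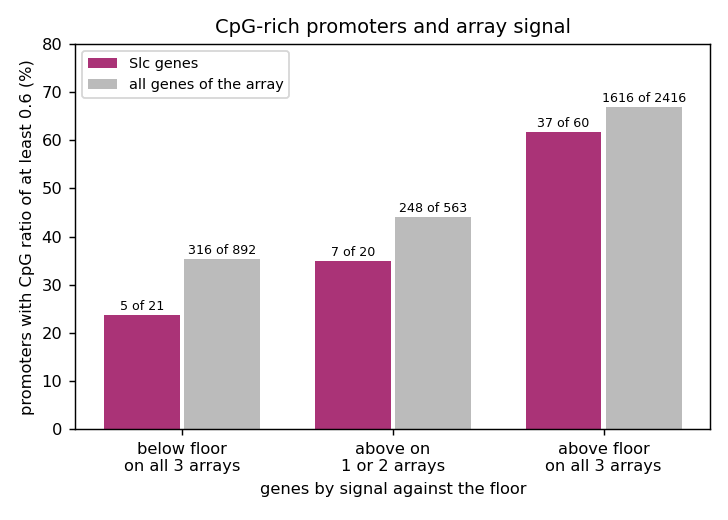
Share of promoters (percent, with the number of promoters above each bar) whose 250 upstream bases had a CpG ratio of at least 0.6, for Slc genes and for all genes of the array, by signal against the floor. In both sets the share is lowest for genes below the floor on all 3 arrays and highest for genes above it on all 3.

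Promoters of 4 members show this range. Slc3a2 and Slc7a5, the heavy and light chain of 1 amino acid exchanger, were above the floor on all arrays and both highest at 0.1 h, Slc25a5 is the mitochondrial carrier whose arrays were over 2-fold apart, and Slc16a12 is the gene below the floor with the lowest CpG ratio. The sequences run 5' to 3' on the strand of the gene. Capitals mark the 5 motifs, which were searched on both strands. TGACGTCA is the full cyclic AMP response element, or CRE. TGACG is the core of that element and was also counted inside the full one. GGGCGG is the GC box that Sp1 binds. CACGTG is an E box of the kind bound by clock and Myc factors. TATAAA is the TATA box.
Slc3a2, chr1:215048065-215048314, minus strand: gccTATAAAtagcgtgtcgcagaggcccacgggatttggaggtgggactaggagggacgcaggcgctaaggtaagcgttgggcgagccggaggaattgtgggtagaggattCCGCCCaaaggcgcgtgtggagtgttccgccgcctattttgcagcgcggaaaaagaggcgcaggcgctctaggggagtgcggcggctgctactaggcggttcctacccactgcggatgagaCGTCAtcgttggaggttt
Slc7a5, chr19:66872413-66872662, minus strand: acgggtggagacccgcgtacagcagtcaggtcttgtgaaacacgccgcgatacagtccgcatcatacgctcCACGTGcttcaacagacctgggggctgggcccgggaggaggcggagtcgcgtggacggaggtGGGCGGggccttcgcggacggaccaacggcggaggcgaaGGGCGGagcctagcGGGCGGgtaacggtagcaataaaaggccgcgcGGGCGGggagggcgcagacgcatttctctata
Slc25a5, chrX:120897366-120897615, plus strand: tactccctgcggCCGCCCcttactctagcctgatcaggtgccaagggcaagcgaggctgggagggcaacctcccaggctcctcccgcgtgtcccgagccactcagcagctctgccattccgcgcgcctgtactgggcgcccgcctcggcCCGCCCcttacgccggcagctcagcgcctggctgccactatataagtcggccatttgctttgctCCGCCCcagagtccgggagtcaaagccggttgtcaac
Slc16a12, chr1:241621717-241621966, minus strand: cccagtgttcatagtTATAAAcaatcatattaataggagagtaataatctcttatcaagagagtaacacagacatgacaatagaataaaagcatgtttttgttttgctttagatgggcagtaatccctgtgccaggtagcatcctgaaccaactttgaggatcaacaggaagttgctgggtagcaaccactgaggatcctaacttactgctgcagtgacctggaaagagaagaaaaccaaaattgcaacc
These promoters held 23, 31, 20 and 0 CG dinucleotides in that order. The GC box was found in the first 3 of them, the E box only in Slc7a5, the CRE core only in Slc3a2, and the TATA box in Slc3a2 and Slc16a12. Among the 101 Slc promoters, 49 held the GC box, 19 the CRE core, 11 the E box, 9 the TATA box and 1 (Slc18a2) the full CRE. The shares of the 101 were 48.5%, 18.8%, 10.9%, 8.91% and 0.990% in that order. Over the 3871 genes of the array with a promoter entry they were 53.0%, 25.1%, 7.78%, 10.9% and 2.32%. Over all 27457 promoters of the RefSeq table they were 32.4%, 19.0%, 5.79%, 13.1% and, for the full CRE, 466 promoters. A match describes these letters and is not evidence of a bound factor.

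Between the arrays, most Slc genes differed little. Of the 73 genes above the floor throughout, 46 (63.0%) kept all arrays within 1.5-fold, against 50.6% of all such genes, and 10 (13.7%) were at least 2-fold apart in some pair, against 17.8% of all such genes. With genes measured on only 2 arrays, 12 Slc genes reached 2-fold in at least 1 comparison. On the 0.1 h array against 0.0 h, 6 of 74 measured Slc genes were at least 2-fold higher (8.11%) and 2 lower (2.70%), where 5.68% and 4.71% of all 2994 measured genes were. On the 1.0 h array against 0.0 h, 2 of 78 were higher and 2 lower (2.56% each), where 2.34% and 2.64% of 3029 genes were. On the 1.0 h array against 0.1 h, 1 of 77 was higher (1.30%) and 5 were lower (6.49%), where 4.04% and 5.06% of 3043 genes were. The median log2 difference of the Slc genes was 0.014, 0.023 and -0.094 in that order, beside -0.0022, 0.011 and 0.0015 for all genes. These comparisons share arrays and are not independent of each other.

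**Figure D3:**
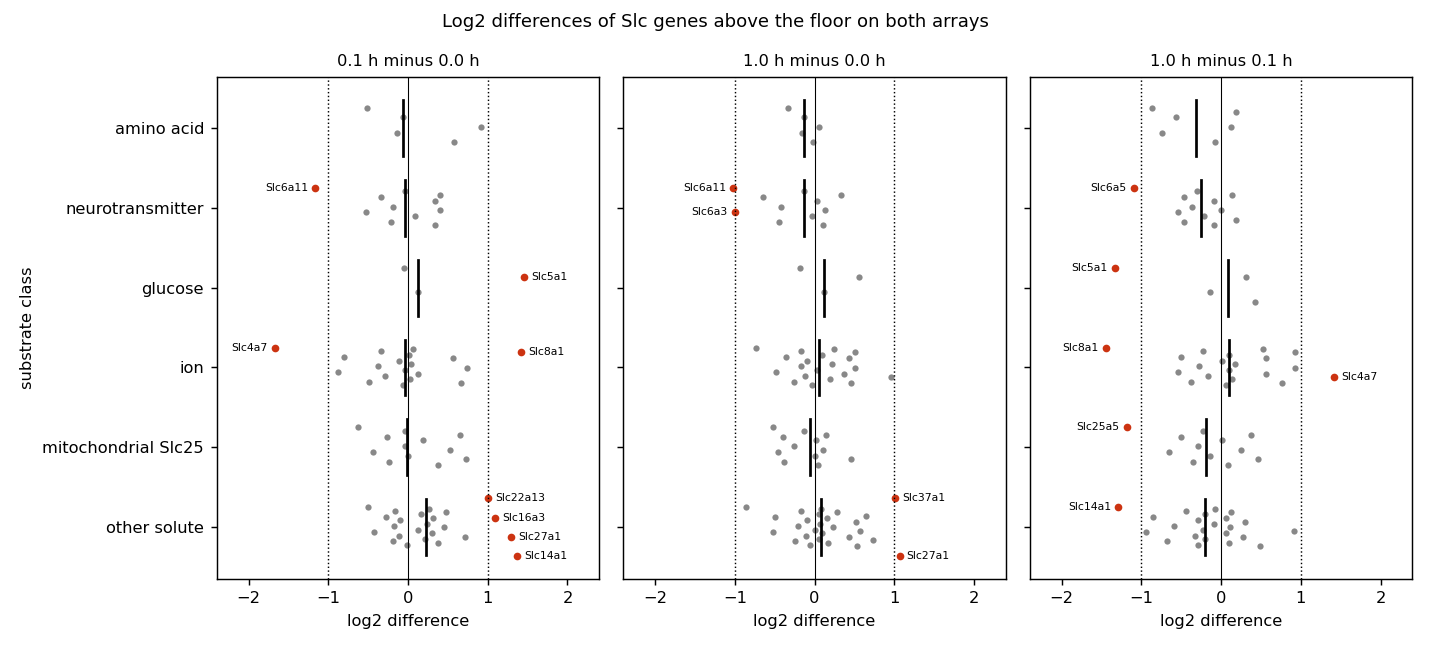
Log2 difference between 2 arrays for every Slc gene above the floor on both, by substrate class, with dotted lines at 2-fold, red named points beyond them and a black bar at the class median. Most genes lie within 2-fold of 0, and the red points are spread over 5 of the 6 classes, with none among the amino acid carriers.

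The split between higher and lower calls depended on the scaling. Making the 9 spike-in control probe sets equal moved all genes by -0.28, 0.20 and 0.47 on the log2 scale in the 3 comparisons. Slc calls were then 4 higher and 4 lower at 0.1 h against 0.0 h, 3 and 0 at 1.0 h against 0.0 h, and 8 and 0 at 1.0 h against 0.1 h. On the deposited scale they were 5 and 2, 3 and 0, and 4 and 5. Quantile and cyclic loess normalisation each gave 5 and 2, 1 and 2, and 1 and 5. Differences below are relative to the median of all genes.

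**Figure D4:**
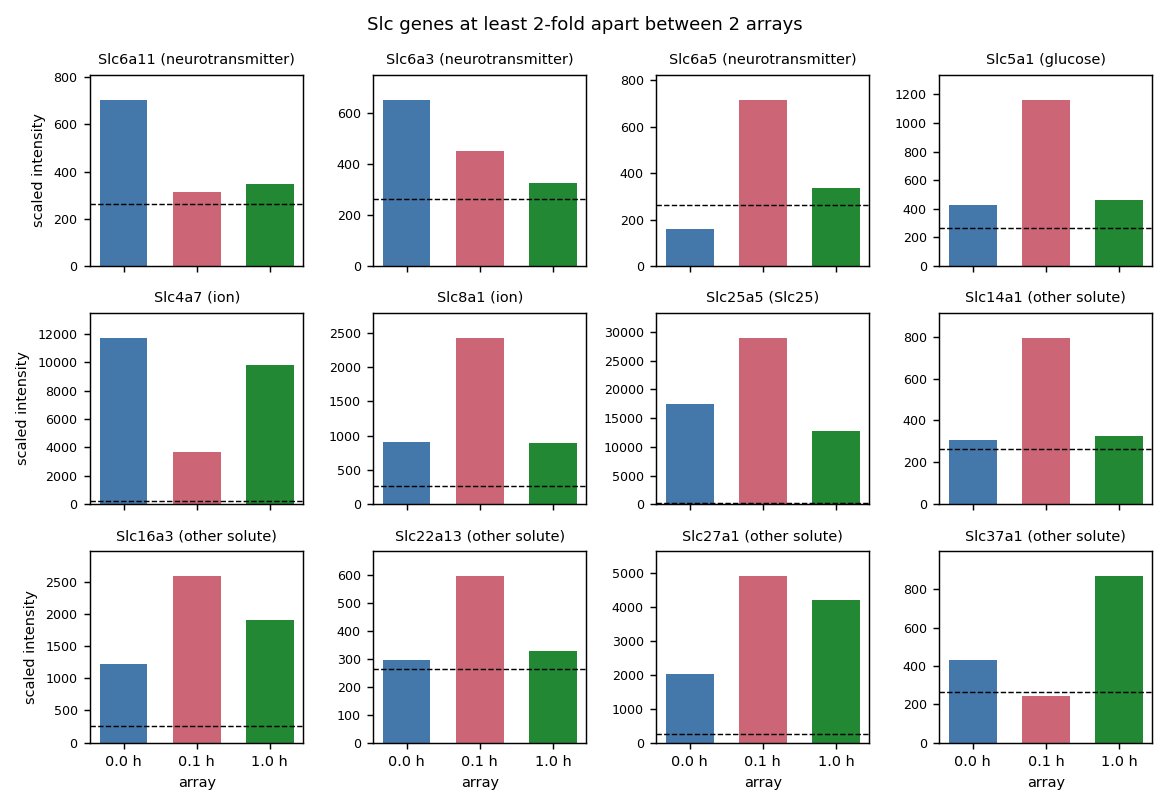
Scaled intensity on the 0.0 h, 0.1 h and 1.0 h arrays of the 12 Slc genes at least 2-fold apart between 2 arrays above the floor (1 bar per array, no error bars since each label has 1 array; dashed line, floor of 262.9). Slc5a1, Slc8a1 and Slc14a1 are high on the 0.1 h array alone, Slc4a7 is low on it, and several others lie near the floor.

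Amino acid carriers supply building blocks for protein synthesis and, in the pineal gland, the tryptophan from which melatonin is made. The large neutral amino acid exchanger pairs the light chain Slc7a5, which binds the amino acid, with the heavy chain Slc3a2, which brings it to the membrane. Slc7a5 measured 1312, 2478 and 1361, a log2 difference of 0.92 at 0.1 h against 0.0 h and -0.87 at 1.0 h against 0.1 h, just short of 2-fold in both. Slc3a2 measured 13219, 19778 and 11846, and its other probe set 1809.7, 2456 and 1603. All 3 probe sets of the pair were thus highest on the 0.1 h array, by 0.58 and 0.44 on the log2 scale over 0.0 h for those of Slc3a2. With spike-in scaling the difference at 0.1 h against 0.0 h was 0.31 for the brightest probe set of Slc3a2 and 0.64 for Slc7a5.

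Other amino acid carriers differed less between arrays. Slc7a1, which takes up cationic amino acids, measured 1399.5, 984 and 1115. Slc6a20a, a sodium-coupled carrier of proline and related imino acids, measured 1569, 1423 and 1544, and Slc3a1, the heavy chain of the cystine and dibasic amino acid carrier, measured 457, 438 and 416. These 3 probe sets had all arrays within 1.5-fold. Another probe set of Slc7a1 read 289, 287 and 472, highest at 1.0 h where the first was highest at 0.0 h. Slc7a3, a second cationic carrier, was below the floor only at 0.0 h (156, 402 and 273). Slc6a15 and Slc6a18 were above it only at 0.0 h, at 315 and 333. Slc7a2 and Slc6a17 were below it throughout.

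Plasma membrane carriers of transmitters end a signal by clearing the transmitter from the extracellular space. The glutamate carriers of neurons and glia varied little in their brightest probe sets. Slc1a1 measured 4919, 3894 and 3673, Slc1a2 measured 1500.1, 1457 and 1365, and Slc1a3 measured 1654, 1423 and 1619. None was over 1.5-fold apart between arrays, and Slc1a6 was below the floor throughout. Other probe sets of these genes lay mostly below the floor, and those of Slc1a3 did so on every array. Another of Slc1a2 was above it only at 0.0 h (404, 84.5 and 195), and another of Slc1a1 only at 0.1 h (159, 269 and 230). Both the signal and its evenness thus rest on the brightest probe sets.

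Among carriers of GABA, Slc6a11, a GABA carrier found on glia in the brain, measured 706, 315 and 348. It was highest on the 0.0 h array, with log2 differences of -1.16 at 0.1 h and -1.02 at 1.0 h, and its later values lay just over the floor. Spike-in scaling and the deposited scale put the second of these at -0.82 and -0.96, short of 2-fold. Slc6a13, a further GABA carrier, measured 880.5, 776 and 561.

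Monoamine carriers take dopamine, noradrenaline or serotonin back into the cell. The dopamine carrier Slc6a3 measured 654, 453 and 327, 2.00-fold lower at 1.0 h than at 0.0 h and so on the line. Its other probe set ran the opposite way, at 194, 246 and 386, and the mean of the 2 probe sets gave -0.01. The serotonin carrier Slc6a4 measured 608, 772 and 769, and the noradrenaline carrier Slc6a2 measured 507, 539.7 and 372. The values of both were within 1.5-fold in these probe sets. The other probe set of Slc6a4 read 152, 493 and 424, below the floor at 0.0 h, and the mean of the 2 probe sets passed 2-fold at 0.1 h against 0.0 h.

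Glycine and other small solutes are also carried by this family. Slc6a5, the neuronal glycine carrier, measured 161, 716 and 336, below the floor at 0.0 h and at a log2 difference of -1.09 at 1.0 h against 0.1 h. Slc6a9, the more widespread glycine carrier, measured 370.0, 487 and 397. The taurine carrier Slc6a6 measured 894, 1179 and 912. Slc6a7, a proline carrier, was above the floor only at 0.1 h, at 483. In the class as a whole, 2 of 12 measured genes were higher at 1.0 h than at 0.1 h and the median log2 difference was -0.25, or 0.22 with spike-in scaling. Of all genes 50.0% were higher in that comparison, with a median of 0.0015.

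Vesicular carriers fill secretory vesicles. The amine carriers Slc18a1 (51.3, 73.4 and 61.0) and Slc18a2 (209, 85.1 and 42.1) were below the floor on every array, as were the chromaffin genes Th and Dbh. The vesicular glutamate carrier Slc17a7 (33.1, 32.1 and 38.6) and the GABA and glycine carrier Slc32a1 (231, 236 and 104) were below it too, and Slc17a6 has no probe set with a single symbol. Only the acetylcholine carrier Slc18a3 was above it, at 744, 941 and 812, and its other probe set read 545, 677 and 585 with the same order of arrays. The vesicular proton pump, whose gradient these carriers use, had 8 of 9 listed genes above the floor. None of the 8 was 2-fold apart between 0.1 h and 0.0 h, 1 of 8 was lower at 1.0 h than at 0.0 h (Atp6v1a, -2.25) and 2 of 8 were lower at 1.0 h than at 0.1 h (Atp6v1a, -1.92, and Atp6v0c, -1.19). Of all genes 2.64% and 5.06% were lower in these comparisons. With spike-in scaling Atp6v0c was at -0.72, short of 2-fold. The transmitter enzyme list had 7 of 13 genes above the floor, among them Tph1, which starts serotonin synthesis, at 22074, 16982 and 22618. In that list 1 of 8 genes was at least 2-fold higher at 0.1 h than at 0.0 h (Asmt, the last enzyme of melatonin synthesis, 1.27, where 5.68% of all genes were). Maob, which breaks down amines, was lower at 1.0 h than at 0.0 h (-1.53, 1 of 7) and than at 0.1 h (-1.17, 1 of 8). With spike-in scaling the values of Asmt (0.995) and, at 1.0 h against 0.1 h, Maob (-0.70) were short of 2-fold.

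Glucose enters most cells through facilitated carriers of the Slc2 family. Slc2a1, the carrier of the blood-brain barrier and red cells, measured 20904, 20246 and 18407, and its other probe set 8796, 6305 and 8818. Slc2a3, the neuronal form, measured 499.6, 546 and 735. Both genes had all arrays within 1.5-fold. The fructose carrier Slc2a5 was below the floor at 0.0 h (238, 412 and 511), and Slc2a2 and the insulin-regulated Slc2a4 were below it throughout.

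The sodium-coupled glucose carrier of gut and kidney, Slc5a1, measured 424, 1163 and 460.5. This gave log2 differences of 1.45 at 0.1 h against 0.0 h and -1.34 at 1.0 h against 0.1 h. The other probe set of Slc5a1 read 534, 419 and 432, a log2 difference of -0.35 in the first comparison, so the direction depended on the probe set. Slc5a2, the kidney form, was above the floor only at 0.1 h, at 289.5.

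Ion carriers set cell volume, pH and the gradients that other carriers use. Bicarbonate carriers of the Slc4 family were all above the floor. Slc4a7, a sodium bicarbonate cotransporter, measured 11715, 3687 and 9831. It was low on the 0.1 h array, with log2 differences of -1.67 against 0.0 h and 1.41 at 1.0 h against 0.1 h. Slc4a7 kept at least 2-fold in both under every setting in which it was measured, from -1.94 to -1.66 and from 1.40 to 1.89. It has 1 probe set, so no second reading exists on the array, and the mean of all probe sets was the main value itself.

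Slc4a4, also a sodium bicarbonate cotransporter, measured 1019, 553 and 937, and Slc4a3, an anion exchanger, 1813, 1402 and 2065. Both were lowest at 0.1 h but short of 2-fold. Slc4a2, another anion exchanger, measured 752, 772 and 1468. Slc4a1, the anion exchanger of red cells, measured 1098, 1193 and 1280.1 on arrays where 4 of 4 erythroid markers, of which it is 1, were above the floor. All 5 genes were higher at 1.0 h than at 0.1 h under each of the 5 scalings tried. In the main scaling their median log2 difference was 0.76, where 50.0% of all genes were higher. The deposited scale and spike-in scaling put the median of all genes at 0.090 and 0.47, so both favour higher values in this comparison.

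Cation-chloride cotransporters set the chloride level inside the cell. Slc12a2, which brings chloride in, measured 7718, 12282 and 11004. Of its other 3 probe sets, the one above the floor at 0.0 h and 0.1 h gave a log2 difference of -0.29 there, against 0.67 for the first. The remaining ones were lowest at 0.0 h and below the floor there, at 109, 239 and 310, and 159, 309 and 281. Slc12a5, the neuronal form that takes chloride out, measured 12342, 12508 and 9621. Slc12a4 and Slc12a7, which also export potassium and chloride, measured 424, 708 and 583, and 1967, 1398 and 2661. Both probe sets of Slc12a4 gave a log2 difference of 0.74 at 0.1 h against 0.0 h. The kidney forms Slc12a1 and Slc12a3 were below the floor throughout.

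The sodium-calcium exchanger Slc8a1, which removes calcium from the cell, measured 904, 2425 and 888. Its log2 difference was 1.42 at 0.1 h against 0.0 h and -1.45 at 1.0 h against 0.1 h. The array holds 5 probe sets for Slc8a1, and the 2 others above the floor at 0.0 h and 0.1 h gave -0.76 and -0.05 in the first comparison. The high value at 0.1 h was thus seen with only 1 of these 3 probe sets. Slc8a2 and Slc8a3 lay around the floor (195, 142 and 323, and 236, 307 and 329), and Slc24a2, a potassium-dependent exchanger, measured 364, 287 and 324.

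Metal carriers included Slc11a2, the iron and divalent metal importer, which measured 21916, 21397 and 23422. Its other 2 probe sets read 871, 1077 and 1159.9, and 3882, 3609 and 4177. The iron exporter Slc40a1 was above the floor only at 0.1 h (157, 349.9 and 248). The zinc carrier Slc30a4 measured 1874, 1886 and 1336, Slc30a2 measured 398, 197 and 514, and the zinc exporter Slc30a1 was above the floor only at 1.0 h (19.9, 29.5 and 302). The magnesium carriers Slc41a2 and Slc41a3 measured 2588, 2126 and 3066, and 2937, 3068 and 2615.

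Phosphate, sulfate and proton carriers made up the rest of the class. Slc20a2 and Slc34a1, which take up phosphate with sodium, measured 780.4, 725 and 732, and 347, 334 and 494. Other probe sets of Slc34a1 gave other directions, with log2 differences of 0.33 at 0.1 h against 0.0 h and -0.79 at 1.0 h against 0.0 h in the ones measured there, against -0.06 and 0.51. Slc20a1 has no probe set with a single symbol. The sulfate carriers Slc26a1 and Slc26a2 measured 540.0, 311 and 324, and 349, 517 and 356. The sodium-proton exchangers Slc9a2, Slc9a3 and Slc9a4, the iodide carrier Slc5a5 and Slc17a1 were below the floor on all arrays. The sodium pump, which makes the sodium gradient that coupled carriers spend, had 5 of 6 listed genes above the floor, with Atp1b1 at 9672, 10174 and 9019. Among these 5 only Fxyd1, a regulator of the pump, reached 2-fold, at -1.43 on the log2 scale for 1.0 h against 0.1 h, where 5.06% of all genes were lower. With spike-in scaling Fxyd1 was at -0.96, short of 2-fold.

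Mitochondrial carriers link metabolism in the cytosol to that in the matrix. The adenine nucleotide carriers Slc25a4 and Slc25a5 exchange ATP made in the mitochondrion for ADP. Slc25a5 measured 17545, 28992 and 12775, with log2 differences of 0.72, -0.46 and, at 1.0 h against 0.1 h, -1.18. Slc25a4 measured 31376, 45082 and 28728, with 0.52 and -0.65 in the comparisons that involve the 0.1 h array. Both were highest at 0.1 h, also with spike-in scaling (0.45 for Slc25a5 and 0.25 for Slc25a4 against 0.0 h), and each has 1 probe set. Near-identical copies of these genes could share probes, which was not tested. Spike-in scaling brought the -1.18 of Slc25a5 to -0.71.

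The phosphate carrier Slc25a3, which supplies phosphate for ATP synthesis, measured 60210.3, 51199 and 41823. Slc25a17, the peroxisomal member of the family, measured 31485, 35735 and 32311. The dicarboxylate carrier Slc25a10 measured 19920.4, 14664 and 20176, while another of its probe sets read 5402, 10004 and 7663, a log2 difference of -0.44 for the first and 0.89 for the second at 0.1 h against 0.0 h. Direction at 0.1 h also differed between the probe sets of Slc25a14, at -0.27 and 0.46.

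Slc25a11, the oxoglutarate carrier, measured 7434, 7239.8 and 5673 (its other probe set read 3289.7, 2732 and 4006, lowest at 0.1 h and not at 1.0 h), and the citrate carrier Slc25a1 measured 1972, 3099 and 2183. The carnitine and acylcarnitine carrier Slc25a20 was the most even of the class, at 2034, 2032 and 2043. Slc25a26, which imports S-adenosylmethionine, measured 5141, 5023 and 4307. Slc25a30 and Slc25a23 measured 1516, 980.4 and 1162, and 815, 1060.4 and 1122. In all, 8 of the 12 kept their arrays within 1.5-fold and 1 reached 2-fold in some pair. Of all genes above the floor throughout, 50.6% and 17.8% did. The median log2 differences of the class were -0.018, -0.060 and -0.18, and with spike-in scaling -0.29, 0.14 and 0.29.

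A list of mitochondrial membrane channels, import proteins and carriers without an Slc symbol was read beside the Slc25 genes. Of 6 measured genes of that list, 3 were at least 2-fold higher at 0.1 h than at 0.0 h, where 5.68% of all genes were. They were the outer membrane channel Vdac1 (299, 1228 and 599), the pyruvate carrier subunit Mpc1 (9806, 38264 and 18618) and the uncoupling protein Ucp2 (12522, 31705 and 16906). Vdac1 and Mpc1 were also 2 of 6 lower at 1.0 h than at 0.1 h (both -1.04), where 5.06% of all genes were, and spike-in scaling took them to -0.56 and -0.57. The import receptor Tomm20 ran the other way, at 83172, 47314 and 62652.

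Carriers of other solutes, the largest class, held 4 of the 6 genes that were at least 2-fold higher at 0.1 h than at 0.0 h. These were 4 of 24 measured genes of the class (16.7%), where 5.68% of all genes were. Slc27a1, which takes up long-chain fatty acids, measured 2010.0, 4905 and 4207. It was lowest at 0.0 h, with log2 differences of 1.29 at 0.1 h and 1.07 at 1.0 h. Slc27a1 kept its direction in all settings in which it was measured. Its 1.0 h value passed 2-fold under 6 of 7 other settings, falling just short with the floor at the 20th percentile. Slc27a1 has 1 probe set, so the mean of all probe sets gave the main value and is no separate check. The summed intensity of 4 adipocyte markers was also highest on the 0.1 h array, at 5121, 11077 and 7149, and rests on 2 of them. Lep and Cfd were the 2 above the floor, with log2 differences of 1.11 and 1.13 at 0.1 h against 0.0 h. Of all genes 5.68% were at least 2-fold higher there. With spike-in scaling Lep and Cfd were at 0.84 and 0.86, short of 2-fold. The defining lipid droplet gene Plin1 and Fabp4 were below the floor on every array. Single markers of other cell types were also higher at 0.1 h than at 0.0 h. Of 4 measured astrocyte markers 1 was at least 2-fold higher (S100b, 1.46) and 0 lower. Of 4 measured leukocyte markers 1 was higher (Ptprc, 1.34) and 0 lower. Spike-in scaling left these at 1.18 and 1.06. The muscle marker Myh1 measured 1033, 1420 and 1839, while 4 of 6 muscle markers were below the floor on every array. The part of any of these cell types in the difference of Slc27a1 was not tested.

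Monocarboxylate carriers move lactate, pyruvate and ketone bodies. Slc16a3, the lactate exporter of glycolytic cells, measured 1219, 2589.6 and 1910.3, a log2 difference of 1.09 at 0.1 h against 0.0 h that became 0.81 with spike-in scaling. Slc16a1 measured 1154, 1338 and 1069.9, and its other probe set 833, 498 and 985 with the opposite direction. Slc16a6 measured 18669, 17421 and 18738. Slc16a8 and Slc16a7 were above the floor on 1 array each, and Slc16a12 on none.

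The urea carrier Slc14a1 measured 307, 794 and 325. It was high on the 0.1 h array alone, with log2 differences of 1.37 and -1.29 in the comparisons with that array. The other probe set of Slc14a1 was below the floor throughout, at 196, 71.0 and 139.7. Slc14a2, the kidney urea carrier, measured 1209, 1677 and 1751. Slc22a13, an organic anion carrier, measured 298, 598 and 330.4, a log2 difference of 1.01. It passed 2-fold under 1 of 6 other settings in which it was measured. That setting was the mean of all probe sets, which for a gene with 1 probe set is the main value itself. Under the others the difference lay short of 2-fold, from 0.73 to 0.97.

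Sugar phosphate carriers of the endoplasmic reticulum gave the other difference past 2-fold. Slc37a1 measured 433, 242 and 869.6, below the floor at 0.1 h and with a log2 difference of 1.01 at 1.0 h against 0.0 h. It passed 2-fold under 3 of 6 other settings. Slc37a4, the glucose 6-phosphate carrier, measured 2329, 3176 and 1653, and its other probe set 883, 1491 and 838. Both were highest at 0.1 h, and the log2 difference of 1.0 h against 0.1 h was -0.94 and -0.83.

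Vitamin carriers were all above the floor on at least 2 arrays. Slc5a6, which takes up biotin and pantothenate, measured 11867, 12909.8 and 10520.4, while its other probe set was below the floor throughout (118, 64.2 and 50.5). The folate carrier Slc19a1 measured 3012, 2129 and 2619. The other probe set of Slc19a1 read 948, 556 and 1285, a log2 difference of 1.21 at 1.0 h against 0.1 h where the first gave 0.30, and at 1.0 h against 0.0 h the directions were opposite (0.44 and -0.20). Slc23a3, a relative of the ascorbate carriers, measured 573, 225 and 847, under the floor only at 0.1 h. Slc52a3, a riboflavin carrier, measured 345, 343 and 369. Nucleotide sugar carriers of the Golgi and endoplasmic reticulum, Slc35a1 and Slc35b1, measured 7432, 6643 and 6931, and 7078, 7918 and 4928. The other probe set of Slc35b1 read 1840.5, 2586 and 1206, a log2 difference of -1.10 at 1.0 h against 0.1 h, past 2-fold, where the first gave -0.68. Slc35f6 was above the floor only at 1.0 h, at 535.

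Nucleoside carriers included Slc29a1 and Slc29a2, which equilibrate adenosine and other nucleosides across the membrane. They measured 1092, 906 and 599.9, and 798, 1315 and 1146. Sodium-coupled Slc28a1 measured 508, 628 and 682, and Slc28a2 was below the floor throughout. The creatine carrier Slc6a8 measured 4314, 3819 and 3634, the myo-inositol carrier Slc5a3 measured 364, 428 and 350.2, and Slc44a4, a choline carrier family member, measured 519, 480.3 and 582. The bile acid carrier Slc10a2 measured 336, 295 and 558.

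Of 8 organic ion carriers, 3 were above the floor on all arrays, among them the carnitine carrier Slc22a5 at 766, 953 and 898 and Slc22a7 at 822, 985 and 853. Slc22a6 and Slc22a25 were below it only at 0.1 h, Slc22a18 was above it only at 0.0 h, and Slc22a2 and Slc22a3 were below it throughout. The peptide carrier Slc15a4 measured 1351, 1004 and 1402, Slc15a2 was below the floor at 1.0 h, and Slc15a1 was below it throughout. Among sulfate and carboxylate carriers Slc13a2 was above it only at 0.0 h, Slc13a1 only at 1.0 h, and Slc13a3 on no array. The liver forms Slc10a1 and Slc27a2 were below it on all arrays. In the related Slco family of organic anion carriers, 2 of 6 genes were above the floor throughout, and Slco2a1, a prostaglandin carrier, measured 1322, 334 and 1349.

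Of the 43 Slc genes with several probe sets, 17 had more than 1 measured at both 0.0 h and 0.1 h. In 10 of the 19 pairs of a brightest and another probe set the log2 differences had the same sign, and the median gap between them was 0.39. At 1.0 h against 0.0 h the signs were the same in 10 of 17 pairs with a median gap of 0.32, and at 1.0 h against 0.1 h in 11 of 19 with 0.44. These gaps compare with an SD of the log2 differences, taken from the median absolute deviation over all probe sets, of 0.53, 0.44 and 0.56. For Slc1a3, Slc2a3, Slc4a2, Slc5a6, Slc6a2, Slc10a2, Slc14a1, Slc14a2, Slc22a7, Slc24a2 and Slc35a1, every other probe set was below the floor on all arrays. Signal above the floor for these genes rests on the brightest probe set alone. Genes just inside 2-fold were Slc22a13 (2.01-fold) and Slc16a3 (2.12-fold) at 0.1 h against 0.0 h, with Slc7a5 (1.89-fold) and Slc4a4 (1.84-fold) just outside. At 1.0 h against 0.0 h, Slc6a3 (2.00-fold) and Slc37a1 (2.01-fold) were just inside and Slc4a2 (1.95-fold) and Slc29a1 (1.82-fold) just outside. At 1.0 h against 0.1 h, Slc6a5 (2.13-fold) and Slc25a5 (2.27-fold) were inside and Slc37a4 (1.92-fold) and Slc12a7 (1.90-fold) outside.

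**Figure D5:**
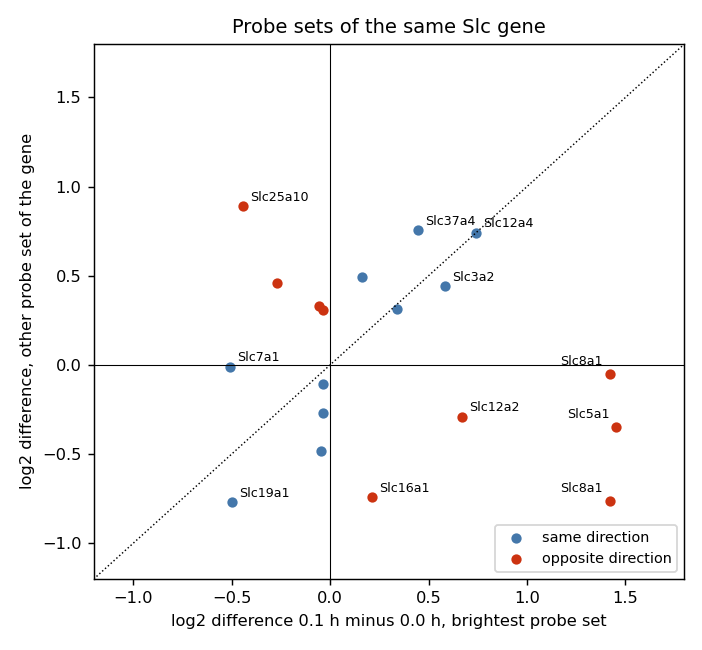
Log2 difference at 0.1 h against 0.0 h of the brightest probe set of an Slc gene (x axis) and of another probe set of the same gene (y axis), for the 19 pairs above the floor on both arrays, with equality as a dotted line. Points share a direction in 10 pairs (blue), and the pairs of Slc5a1 and Slc8a1 lie far below the line.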

How the data were processed

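Total RNA of 3 samples, 1 per time label, was measured on 1 array each. The authors' deposited values are linear intensities of 8799 probe sets, 59 of them controls, and how they were made from the scans is not given in the sources used here. Genes were named from the platform annotation, which gave a single symbol for 7006 probe sets. All 120 Slc symbols matched RefSeq names, and 2 probe sets with several symbols were left out.

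Intensities were taken to log2, scaled to the array median, given a floor at the 40th percentile of pooled values (262.9), and shifted to equal medians of the probe sets that passed the floor on every array. The total factors were 1.01, 1.03 and 0.966. A difference was taken only where both arrays were above the floor and counted at 2-fold or more. With 1 array per group there is no p-value. The calculation was tested on simulated data with known changes. The SD of differences came from the median absolute deviation. Python 3.11.15, numpy 2.4.6, pandas 2.3.3, R 4.3.3 and limma 3.58.1 (cyclic loess) were used.

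Members, classes and lists were chosen with earlier results of these data known, and Slc6a20a was moved to the amino acid class after values were seen. Genes named by rule were those at least 2-fold apart, in each class the 3 brightest of those above the floor on all arrays, those at the floor on 1 array and at 526 or more, 2 times the floor, on another, and a fixed set. The remaining members were named to account for all. There were 8 alternatives, of scaling (deposited values, quantile, cyclic loess, spike-in), floor (20th and 60th percentile) and probe set (mean of all, second-brightest).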

Additional observations from a re-analysis of the deposited data

How the results depend on the processing

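Over the 8 alternatives, 51 of 80 main counts and medians kept within 1.5 times or 0.1 on the log2 scale, and 29 did not. Slc genes at least 2-fold higher or lower are given below as counts. On the deposited scale 0 were lower at 1.0 h against 0.0 h and 4 higher at 1.0 h against 0.1 h. Quantile and cyclic loess normalisation each left 1 higher at 1.0 h against 0.0 h. Spike-in scaling gave 4 lower at 0.1 h against 0.0 h, 0 lower at 1.0 h against 0.0 h, and 8 higher and 0 lower at 1.0 h against 0.1 h, with median log2 differences of -0.26, 0.22 and 0.38, since it moves all genes together. The floor at the 20th percentile, which admits more genes, gave 11 higher and 9 lower at 0.1 h against 0.0 h, 6 lower at 1.0 h against 0.0 h and 8 higher at 1.0 h against 0.1 h. The floor at the 60th percentile, which admits fewer, gave 3 higher and 1 lower, 1 higher and 0 lower, and 2 lower. The mean of all probe sets gave 1 lower at 1.0 h against 0.0 h, and 2 higher and 2 lower at 1.0 h against 0.1 h. The second-brightest probe set, for which 15 to 17 Slc genes were measured, left 15 genes above the floor on all arrays and 0 at 2-fold in either direction in the comparisons with 0.0 h. At 1.0 h against 0.1 h it gave 1 higher (Slc19a1) and 1 lower (Slc35b1). It reversed Slc5a1 (-0.35 at 0.1 h against 0.0 h, 0.044 at 1.0 h against 0.1 h) and Slc8a1 (-0.049 and 0.032). Of the values for single genes and classes, 754 were labelled the same, 74 moved and 4 reversed. A class median was the same if it moved by less than 0.1. A single gene was the same if it moved by less than the SD of the log2 differences over all genes. That is a wide bound, within which a direction can flip. Spike-in scaling moves all genes of a comparison by 1 amount, and the mean of all probe sets leaves genes with 1 probe set unchanged. Labels of single genes were fixed in advance there. Apart from the construction of each alternative, the cause was not tested. The direction of 13 of 74, 25 of 78 and 27 of 77 Slc genes flipped under some scaling, and of 4, 13 and 6 when spike-in scaling is left out.

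No paired analysis was possible because each label has 1 array. Leaving out a replicate was not possible for the same reason. Signal over background limits the values near the floor.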
